A study of Rattus norvegicus with 5 samples.

Results

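The solute carriers are a large group of membrane proteins, and 143 probe sets for 124 of their genes were read here on 5 rat expression arrays. A probe set is a group of short probes on the array that report 1 transcript. Members were taken by name, as probe sets with a single gene symbol starting with Slc and a digit, and by level, as a mean signal of 200 or more over the 5 arrays. Of 281 such probe sets by name (228 genes), 127 lay under that level and 11 belonged to 9 genes that the selection leaves out, Slc2a1, Slc2a2, Slc16a1, Slc18a1, Slc18a2, Slc7a1, Slc7a5, Slc7a11 and Slc3a2, of which the table holds 8. The arrays carried 15866 probe sets in all, apart from control probe sets. Among the 143, 141 belonged to carriers of 40 numbered families, and 2, Slc4a1ap and Slc7a6os, carry the name without being carriers. Among the genes not left out by name, the level decided which carriers are described. The probe sets just inside it were those of Slc35f6, Slc35a2 and Slc6a20a, with means of 201.5, 201.9 and 204.7. Those just outside were a further probe set of Slc40a1 and those of Slc7a7 and Slc38a1, with 192.8, 195.9 and 198.0. A carrier bright in only some of the arrays can pass such a limit on the strength of those arrays, so counts over the members describe the members and no more.

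Solute carriers move sugars, amino acids, ions, vitamins, metals and nucleotide derivatives across the plasma membrane and the membranes of organelles, mostly driven by gradients rather than by ATP. In beta cells they are known for glucose entry, for the exchange of metabolites across the mitochondrial membrane that links glucose breakdown to insulin release, and for the loading of secretory granules with zinc, which insulin binds in storage. Amino acid carriers feed protein synthesis and can depolarise the cell, and chloride and bicarbonate carriers set cell volume, membrane potential and pH.

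The cells were INS-1, a rat insulinoma line that makes insulin, as the parental line, and 4 clones derived from it, with 1 array of total RNA each. The clones are numbers 2 and 16 of set 1-1 and numbers 14 and 19 of set 5-3, and their full names join the set and the number with a point, as in the plots' legends. All 4 are FLP-In T-REx clones: each carries an FRT site, at which Flp recombinase can insert a gene, and the tetracycline repressor, which holds such a gene silent until tetracycline is given. The labels name no inserted gene and no tetracycline treatment for these arrays, and they do not say what the prefixes 1-1 and 5-3 stand for or whether clones with the same prefix share an origin. Each clone is 1 isolate, so a value specific to a clone and a value specific to the engineering cannot be told apart from 1 array. The 2 questions the design allows are whether the 5-3 clones differ from the 1-1 clones, and whether the 4 clones as a group differ from the parental line.

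Signals are linear, in arbitrary units, and every array had a trimmed mean of 1000.24 to 1000.28. The summed signal of the 143 probe sets was 193515 to 210796 per array. Of 13 beta cell marker genes, 9 were on the array and all 9 had a mean signal of at least 200, with sums of 85698 to 120628 per array. Ins1, Iapp and Chga make up most of these sums. Pcsk2 read 9130 in the parental line, 3331 in clone 2, 1974 in clone 16, 7512 in clone 14 and 8705 in clone 19. Kcnj11 was also higher in both 5-3 clones, by less, and for the other beta cell markers the sets overlapped. Neurod1 read 2790 in clone 16 and 5773 to 8773 elsewhere. All 6 acinar markers and the 5 endothelial and leukocyte markers measured lay under 200, as did the 1 duct marker measured. Of 7 fibroblast markers only Thy1 was over it, and of 4 markers of other islet cells only Gcg, the glucagon gene, which read 6874 in the parental line, 2064 in clone 2, 17772 in clone 16, 20550 in clone 14 and 24434 in clone 19. Both 5-3 clones exceeded both 1-1 clones, and clone 16 was nearer to them than to clone 2; the part of this in the carriers' differences was not tested. In bulk RNA, fewer cells of a type and less RNA per cell cannot be told apart.

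Between the sets, 2 carriers passed the test: Slc16a10 was higher in the 5-3 clones and Slc24a3 was lower. Slc16a10 encodes a carrier of aromatic amino acids and thyroid hormones that belongs to the monocarboxylate carrier family. Its signal was 320.0 in the parental line, 105.7 in clone 2, 86.1 in clone 16, 518.6 in clone 14 and 465.6 in clone 19. Both 5-3 clones lay above the parental line and both 1-1 clones below it, with no overlap. The set means were 492 ± 37.5 and 95.9 ± 13.9 (SD, n = 2 each). That is a difference of 2.13 ± 0.28 on the log2(signal + 21.8) scale (SE), or 4.38-fold, with an adjusted p of 0.0434 by limma. Slc24a3, a potassium-dependent exchanger that takes calcium out of the cell against sodium, read 192.3 in the parental line, 622.0 in clone 2, 682.2 in clone 16, 154.4 in clone 14 and 167.5 in clone 19. Here the 2 clones of set 1-1 stood above the other 3 arrays, and the 5-3 clones were close to the parental line. The set means were 161 ± 9.3 in 5-3 and 652 ± 42.6 in 1-1 (SD, n = 2 each). The fitted log2 difference was -1.88 ± 0.26 (SE), or 3.69-fold lower, with an adjusted p of 0.0484 by limma. A further probe set of Slc24a3 read 206.6, 210.4, 320.0, 160.9 and 177.4 in the same order of arrays. It had the same direction and a smaller log2 difference of -0.56 ± 0.32 (adjusted p = 0.476 by limma), so the call for this gene rests on 1 of its 2 probe sets. The called probe set was under the level of 200 on the 3 arrays other than those of the 1-1 clones, so it is a member, and passed the filter at about 194, through those 2 arrays. Slc16a10 was under both limits in the 1-1 clones. The caution on counts over the members holds for these calls too.

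Both calls lay close to the threshold of 0.05 and were fitted with 2 residual degrees of freedom; the p-values measure only the spread between these clones. The call for Slc16a10 was lost without clone 16 (adjusted p = 0.0841) and with dim probe sets kept in the fit (0.126), over a range of 0.0278 to 0.126. That for Slc24a3 was lost without clone 2 (0.0816), without clone 16 (0.132), under cyclic loess (0.0507), with a smaller offset (0.051) and with dim probe sets kept (0.13), over a range of 0.0252 to 0.132. The carriers called changed with each clone left out, and the share of all probe sets called in those fits is not given.

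The 250 bases before the transcription starts of Slc16a10, Slc24a3 and of Slc15a2, the carrier with the largest difference between set means on the log2(signal + 21.8) scale, are given here because these genes show the greatest differences between the sets. They come from RefSeq on build GRCr8, written 5′ to 3′ on the gene's strand. Capitals mark matches to TGCNCNC, letters that include the core of the metal response element; the E-box CACGTG and GTTAAT, part of the HNF1 site, had no match in them. All 3 motifs were sought on both strands, and overlapping matches were counted. The window of Slc16a10 is chr20:45122359-45122608 on the minus strand, that of Slc24a3 is chr3:153005168-153005417 on the plus strand, and that of Slc15a2 is chr11:77519315-77519564 on the plus strand.
Slc16a10: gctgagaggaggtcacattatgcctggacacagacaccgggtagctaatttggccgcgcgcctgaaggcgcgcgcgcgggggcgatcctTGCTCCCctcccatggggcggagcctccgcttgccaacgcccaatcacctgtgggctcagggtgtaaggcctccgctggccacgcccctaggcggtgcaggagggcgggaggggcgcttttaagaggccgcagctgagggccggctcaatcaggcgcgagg
Slc24a3: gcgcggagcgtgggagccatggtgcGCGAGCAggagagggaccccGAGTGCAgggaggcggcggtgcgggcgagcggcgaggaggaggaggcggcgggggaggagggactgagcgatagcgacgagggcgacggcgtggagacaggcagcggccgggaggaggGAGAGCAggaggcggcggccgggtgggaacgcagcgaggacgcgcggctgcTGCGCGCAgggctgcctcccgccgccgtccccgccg
Slc15a2: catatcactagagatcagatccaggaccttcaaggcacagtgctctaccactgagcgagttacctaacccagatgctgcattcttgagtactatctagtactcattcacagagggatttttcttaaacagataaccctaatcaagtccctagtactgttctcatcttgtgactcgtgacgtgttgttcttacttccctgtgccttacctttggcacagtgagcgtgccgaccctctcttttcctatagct
The windows of Slc16a10 and Slc24a3 were 68.4% and 78.0% G and C, with 1 and 5 matches to TGCNCNC, and that of Slc15a2 was 45.6% G and C with 0 matches. RefSeq entries were found for 104 of the 124 genes, as 109 windows of 300 bases that also hold the first 50 transcribed bases. TGCNCNC was found in 72 of the 109 (66.1%), against 49.59% of all 33469 windows of that length. CACGTG was found in 14 (12.8%), against 6.42%, and GTTAAT in 3 (2.8%), against 7.45%. The windows with CACGTG belonged to Slc10a3, Slc12a7, Slc12a9, Slc25a33, Slc26a2, Slc29a2, Slc30a3, Slc30a5, Slc31a2, Slc39a11, Slc41a3, Slc49a4, Slc5a6 and Slc66a2. Metal carriers held TGCNCNC in 15 of 21 windows, beside 66.1% of the windows of all members. The members were chosen by signal level, and the full set of windows was not matched to them for level or for G and C content. These are descriptions of letters, not of binding.

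The 2 calls are 1.4% of the members, and limma called 0.420% of the 9520 probe sets tested (adjusted p under 0.05). At an unadjusted p under 0.05 there were 23 members (16.1%), 10 higher and 13 lower in the 5-3 clones, against 14.8% of all probe sets tested. Both 5-3 clones lay above both 1-1 clones for 20 members (14%), where the share over all 9570 probe sets with a mean signal of 200 or more was 22%. They lay below both for 48 members (33.6%), against 24.6%. With a gap of at least 2-fold, the counts were 3 above (2.1%, against 1.21%) and 3 below (2.1%, against 0.961%). The 6 probe sets with such a gap were those of Slc16a10, Slc15a2 and Slc19a1 above, and of Slc24a3 and Slc1a1 (both probe sets) below. Without clone 19 there were 10 such probe sets, and 7 to 9 without another clone. Leaving out a clone can only keep or raise this count, and no share over all probe sets is given for it.

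Slc15a2 encodes PEPT2, which takes up small peptides with protons. It read 344.7 in the parental line, 148.5 in clone 2, 227.0 in clone 16, 1108 in clone 14 and 754.5 in clone 19. The sets lay on opposite sides of the parental line. The log2 difference was 2.19 ± 0.32, or 4.55-fold, with a limma adjusted p of 0.0519 that missed the threshold and ran from 0.0183 to 0.132 over the alternatives. Slc1a1 encodes the glutamate carrier EAAT3, which also brings in cysteine. Its 2 probe sets read 505.9, 541.5, 564.1, 155.4 and 171.1, and 265.4, 329.0, 345.2, 106.4 and 137.8, in the order parental, clone 2, clone 16, clone 14 and clone 19. In both probe sets the parental line and the 1-1 clones formed a high group and the 5-3 clones a low one. The log2 differences were -1.64 ± 0.25 and -1.33 ± 0.29, with limma adjusted p of 0.0611 and 0.124. Slc1a1 had no window among the promoter entries.

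Slc19a1 encodes the reduced folate carrier. It read 303.3 in the parental line, 212.4 in clone 2, 179.8 in clone 16, 1013 in clone 14 and 477.7 in clone 19. The sets did not overlap, but the 5-3 clones were themselves 2.12-fold apart, and the log2 difference of 1.73 ± 0.38 had a limma adjusted p of 0.128. Slc12a7 encodes KCC4, a carrier that moves potassium and chloride out of the cell. It read 1075 in the parental line, 920.5 in clone 2, 793.0 in clone 16, 278.0 in clone 14 and 436.0 in clone 19. The 5-3 clones were low against the other 3 arrays, with a log2 difference between the sets of -1.24 ± 0.28 and an adjusted p of 0.131 by limma.

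**Figure D1:**
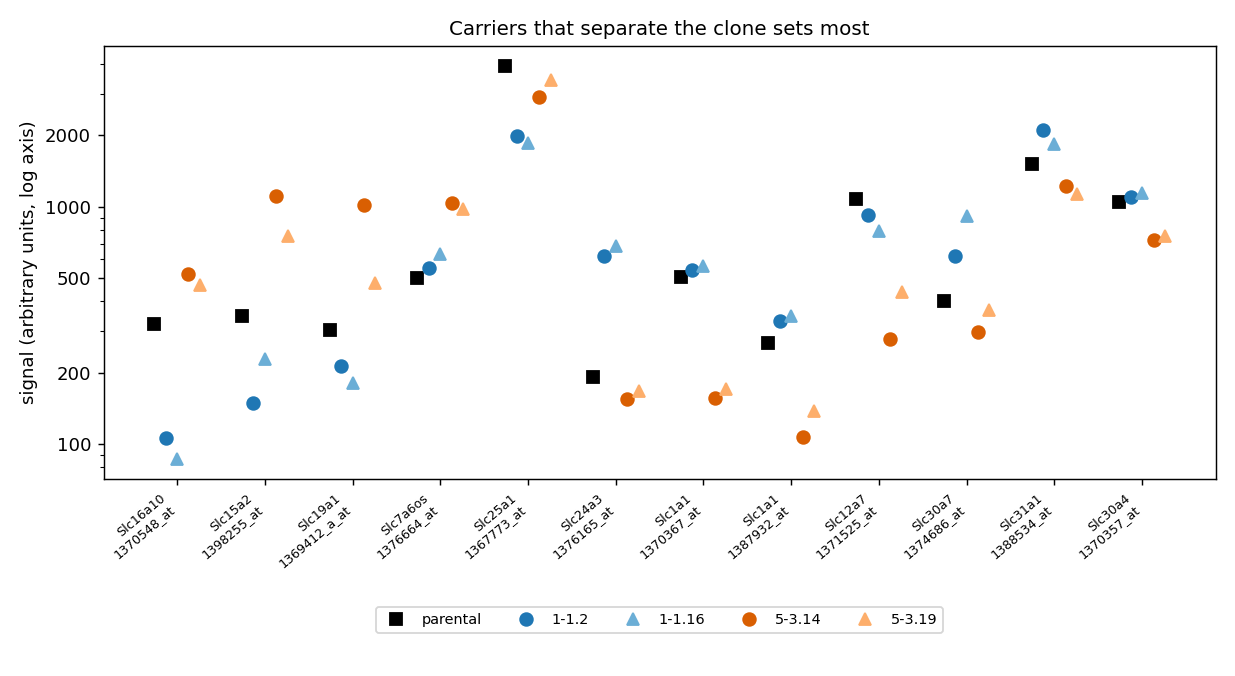
Signal (arbitrary units, log axis) of the 12 probe sets whose clone sets were most separated, 1 point per array, named by gene and probe set. The first 5 have both 5-3 clones (orange) above both 1-1 clones (blue) and the other 7 have them below; the parental line (black square) lies with the 1-1 clones for Slc1a1 and with the 5-3 clones for Slc24a3.

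By class, the members differed in how the sets were placed, and no class is set against another by a test. Classes were formed from family numbers, so some members carry a cargo that their class does not name. Slc16a10, called above, is counted with the sugar and monocarboxylate carriers. Other amino acid carriers outside the amino acid class include Slc66a1, counted with organic ions and vitamins, and Slc25a44, counted with the mitochondrial carriers. Over all 143 members, 56 had a higher and 87 a lower mean in the 5-3 clones, with a median log2 difference of -0.12; over the 9520 probe sets tested, 4363 were higher and 5157 lower, with a median of -0.04. The median size of the difference regardless of sign was 0.3 for the members and 0.26 for all.

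**Figure D2:**
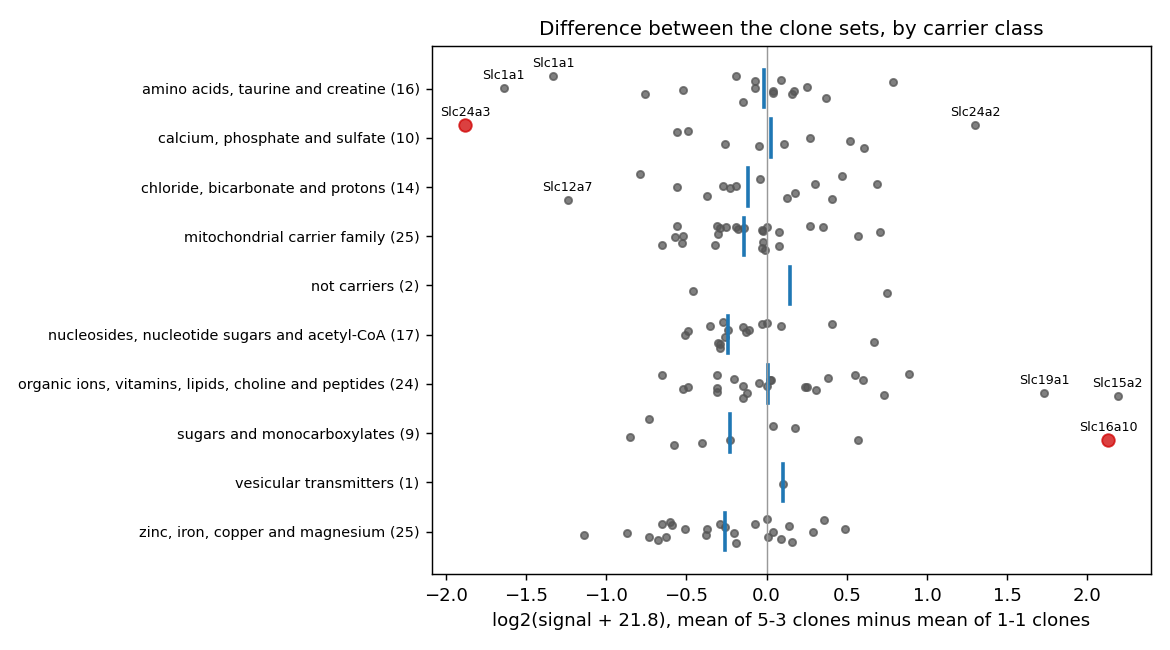
Difference on the log2(signal + 21.8) scale between the mean of the 5-3 clones and that of the 1-1 clones (horizontal axis) for each of the 143 probe sets, by class, with the number of probe sets in brackets. Blue bars are class medians, larger red points are the 2 carriers called by limma, and names mark differences over 1.2 in size; most points lie within 1 of 0.

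Metal carriers formed a class of 25 probe sets for 21 genes, 17 with a lower mean in the 5-3 clones and 8 with a higher one. The median log2 difference was -0.26, and -0.23 to -0.25 with 3 other ways of scaling the arrays. The 5-3 clones lay entirely below the 1-1 clones for 11 of the 25 and entirely above them for 0, where the shares over all probe sets at that level were 24.6% and 22%. All 3 probe sets of Slc31a1 are among the 11, so the 11 are not separate genes. None of the 25 was called, against 0.420% of all probe sets tested. Zinc exporters of the Slc30 family move zinc out of the cytosol into organelles or out of the cell. Slc30a7, of the early secretory pathway, read 399.5 in the parental line, 621.4 in clone 2, 914.1 in clone 16, 295.6 in clone 14 and 367.3 in clone 19, a log2 difference of -1.14 ± 0.29 (adjusted p = 0.156 by limma). Slc30a4 read 1049, 1098, 1142, 726.0 and 750.8 in the same order, with a tight low pair in the 5-3 clones. Slc30a3 read 235.2, 308.9, 407.1, 216.5 and 235.5, and Slc30a5 read 1334, 1725, 1755, 1352 and 1311. For these last 2 the parental line was close to the 5-3 clones and the 1-1 clones were the higher ones. Slc30a6, which pairs with Slc30a5, read 821.9, 1011, 1160, 897.8 and 985.2. Slc30a1, the exporter of the plasma membrane, read 347.0 to 363.1 on 4 arrays and 204.3 in clone 19. Slc30a9 read 1209 to 1972 with the highest signal in clone 19.

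Copper enters through Slc31a1 (CTR1), which had 3 probe sets. They read 1520, 2106, 1841, 1219 and 1135; 842.8, 1054, 968.7, 730.7 and 572.4; and 690.3, 795.7, 645.5, 523.9 and 365.7 in the order parental, clone 2, clone 16, clone 14 and clone 19. In each, both 5-3 clones were below all the other arrays. The log2 differences between the sets were -0.73, -0.63 and -0.68, with limma adjusted p of 0.2, 0.285 and 0.31. The related Slc31a2 read 422.2, 271.4, 283.4, 291.0 and 268.8 in that order, highest in the parental line, by a log2 difference of -0.56 for the clones.

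Among importers of the Slc39 family, which bring zinc and other metals into the cytosol, Slc39a14 read 802.1, 708.6, 559.0, 455.8 and 337.9 in that order. Slc39a13 read 1003, 969.6, 967.3, 801.3 and 771.7. Both had the 5-3 clones lowest, by log2 differences of -0.65 and -0.29 (limma adjusted p = 0.322 and 0.593). Slc39a1 read 640.9 to 651.7 in 3 clones but 304.2 in clone 19 and 288.3 in the parental line. Slc39a7, which releases zinc from the endoplasmic reticulum, gave 1813 for the parental line against 2072 to 3577 for the clones, and Slc39a11 read 2635, 4736, 4257, 5597 and 3260, a log2 difference of 0.73 for the clones against the parental line. Slc39a10 read 1143 to 2111, with the lowest signal in clone 14, and Slc39a3 read 159.3 to 355.0, with the highest signal there. The magnesium carriers Slc41a1, Slc41a2 and Slc41a3 had log2 set differences of -0.19, 0.04 and 0.09.

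Iron carriers were read by 4 probe sets. Slc40a1 encodes ferroportin, the iron exporter, and read 483.2 in the parental line, 1221 in clone 2, 762.1 in clone 16, 1451 in clone 14 and 780.7 in clone 19. Its other member probe set read 592.5, 890.1, 663.3, 1240 and 713.9. Both placed the parental line lowest and clone 14 highest, and 1 clone of each set was high. The probe set of this gene just under the level of 200 read 174.3, 265.9, 145.9, 222.3 and 155.7, with 2 clones below the parental line. Slc11a2 encodes DMT1, the importer of ferrous iron. Its probe sets read 1921, 2394, 2477, 2006 and 874.1, and 727.8, 1548, 1201, 1524 and 840.5. The parental line was second lowest in the first and lowest in the second, and both placed clone 19 lowest among the clones.

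Amino acid, taurine and creatine carriers, taken by family number, numbered 16 probe sets, apart from Slc7a1, Slc7a5, Slc7a11 and Slc3a2, which the selection leaves out. Amino acid carriers of other families, such as Slc16a10, are not among them. Of these 16, 8 were higher and 8 lower in the 5-3 clones, with a median of -0.02. The median's sign turned, to 0.02 with equal array medians and 0.01 under cyclic loess. Apart from Slc1a1, the lowest means relative to set 1-1 were those of carriers of the Slc38 family, which bring in neutral amino acids with sodium. Slc38a4 read 2339 in the parental line, 2748 in clone 2, 2152 in clone 16, 961.9 in clone 14 and 2107 in clone 19. Only clone 14 was low. Slc38a5 read 431.5, 200.9, 220.5, 124.5 and 157.7, highest in the parental line and lowest in the 5-3 clones. Slc7a6, which exchanges cationic and neutral amino acids, read 408.7, 392.2, 304.9, 666.5 and 564.6, a log2 difference of 0.79 ± 0.26 (limma adjusted p = 0.223). Slc7a6os, named for the opposite strand of that gene and not a carrier, read 501.2, 551.8, 633.1, 1039 and 979.0, a log2 difference of 0.75 ± 0.23 (0.205). Both were highest in the 5-3 clones, and the probes' strand was not checked, so the signals of the 2 neighbours are not shown to be separate. The heavy chain Slc3a1 read 289.6, 226.4, 217.4, 311.9 and 275.9, lowest in the 1-1 clones, with a log2 difference of 0.37 ± 0.27 (limma adjusted p = 0.583). Taurine carrier Slc6a6 had probe sets at 1879, 1646, 881.0, 1487 and 1231 and at 4858, 5050, 3208, 4968 and 4120, both lowest in clone 16. Creatine carrier Slc6a8 read 588.1 to 856.2 and 879.7 to 1762 in its 2 probe sets, both lowest in clone 2 and highest in clone 16. The proline carrier Slc6a7 read 232.6 to 314.9, the glycine carrier Slc6a9 read 188.6 to 256.1, the neutral amino acid exchanger Slc7a8 read 342.3 to 571.2 and Slc38a10 read 1474 to 2126.

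Mitochondrial carriers of the Slc25 family were 25 probe sets for 24 genes, 7 higher and 18 lower in the 5-3 clones with a median of -0.14. The split moved to 12 and 13 with equal array medians (median -0.10), and was 7 and 18 under quantile normalization and 8 and 17 under cyclic loess. The ADP/ATP exchangers Slc25a4 and Slc25a5 and the phosphate carrier Slc25a3, which supply the ATP synthase, differed little: Slc25a4 read 16467 to 18607, Slc25a5 read 16766 to 20572 and Slc25a3 read 15668 to 18539. Their log2 set differences were -0.01, 0.00 and -0.03. Signals this bright may lie near the ceiling of the array, which was not tested. Slc25a1, which exports citrate for lipid synthesis, read 3939 in the parental line, 1981 in clone 2, 1856 in clone 16, 2900 in clone 14 and 3425 in clone 19. The 1-1 clones were lowest, with a log2 difference of 0.71 ± 0.21 between the sets (limma adjusted p = 0.2).

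The aspartate-glutamate carriers of the malate-aspartate shuttle were both measured. Slc25a12 read 654.1, 850.4, 680.7, 439.2 and 619.9 in the order parental, clone 2, clone 16, clone 14 and clone 19, and Slc25a13 read 573.1, 1037, 754.7, 809.4 and 737.5. Slc25a13 was lowest in the parental line, and Slc25a12 was lowest in clone 14. The oxoglutarate carrier Slc25a11 read 4055, 4366, 3414, 3802 and 2593, lowest in clone 19, and the dicarboxylate carrier Slc25a10 read 1671, 1385, 1560, 1641 and 2158, highest there. The ornithine carrier Slc25a15 read 347.8, 570.5, 473.0, 423.6 and 299.0. The pyrimidine nucleotide carrier Slc25a33 read 406.6, 594.3, 605.0, 478.5 and 334.0, and the glycine carrier Slc25a38 read 283.4, 424.8, 362.1, 315.4 and 210.1. In these 3 the 1-1 clones were highest and clone 19 lowest. Their log2 set differences were -0.52, -0.56 and -0.57, with limma adjusted p of 0.459, 0.402 and 0.45. Slc25a27, an uncoupling protein homologue, read 272.8, 248.9, 323.6, 163.7 and 182.2 in 1 of its 2 member probe sets (log2 difference -0.65 ± 0.29, limma adjusted p = 0.363). The other read 220.5, 200.2, 258.0, 176.7 and 235.8, with the sets overlapping and a log2 difference of -0.14 (0.881). Slc25a14, another homologue, read 216.1 to 318.0 on 4 arrays and 510.4 in clone 19. The exchanger of carnitine and acylcarnitine, Slc25a20, read 599.3 to 848.4, the glutamate carrier Slc25a22 read 1201 to 1877 and the glutathione carrier Slc25a39 read 4544 to 5824. Slc25a23 and Slc25a25, which exchange ATP-magnesium for phosphate, read 434.8 to 625.1 and 527.9 to 961.4. Slc25a17, of peroxisomes, read 901.2 to 1369, Slc25a29 read 190.3 to 271.0, Slc25a30 read 947.6 to 1254 and Slc25a36 read 3848 to 6363.

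Carriers of nucleosides, nucleotide sugars and acetyl-CoA were 17 probe sets; in the 5-3 clones 3 had a higher and 14 a lower mean, with a median of -0.24. With other scalings 4 or 5 were higher and 13 or 12 lower, with a median of -0.21. The CMP-sialic acid carrier Slc35a1, which supplies the Golgi, had 3 probe sets with log2 differences of -0.27 to -0.51. The clearest read 458.2 in the parental line, 664.2 in clone 2, 863.5 in clone 16, 480.8 in clone 14 and 572.5 in clone 19. In that probe set clone 14 was near the parental line. In the others the sets overlapped. Clone 19 was the highest array in 1 (1672), and clone 14 exceeded clone 2 in the other (1521 against 1489). The equilibrative nucleoside carrier Slc29a2 read 289.2, 336.3, 368.0, 264.0 and 225.5. The acetyl-CoA carrier Slc33a1 read 3364, 4275, 3164, 3200 and 2597, and Slc35b1, of the endoplasmic reticulum, read 6361, 9650, 6540, 6916 and 6112 in 1 of its probe sets. Both were highest in clone 2. Slc35b4 read 875.9 to 1212, Slc35e1 read 1262 to 1530 and Slc35b2 read 956.9 to 1175. The GDP-fucose carrier Slc35c1 read 1113 to 1693, Slc35a4 read 754.8 to 1053 and Slc35e3 read 1052 to 1378.

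Chloride, bicarbonate and proton carriers were 14 probe sets, 6 higher and 8 lower, with a median of -0.11. Besides Slc12a7, the sodium bicarbonate cotransporter Slc4a4 had a lower mean in the 5-3 clones in both probe sets. They read 696.2, 612.4, 878.9, 310.4 and 557.1, and 1657, 1228, 1733, 799.4 and 1202. In each, clone 14 was lowest and clone 19 was just under clone 2. The log2 differences were -0.79 ± 0.34 and -0.56 ± 0.29 (limma adjusted p = 0.356 and 0.447). Slc12a2 encodes NKCC1, which brings sodium, potassium and chloride into the cell. It read 1227, 2467, 2097, 4514 and 3001, lowest in the parental line and highest in the 5-3 clones, with a log2 set difference of 0.69 ± 0.26 (limma adjusted p = 0.287). The neuronal potassium chloride carrier Slc12a5 read 1103, 493.2, 549.5, 547.1 and 966.9, with clone 19 near the parental line. The anion exchanger Slc4a2 read 937.7 to 1222. Slc4a3, of the same kind, read 325.1, 267.9, 257.4, 167.7 and 233.4, highest in the parental line and lowest in the 5-3 clones, with a log2 difference of -0.47 for the clones against the parental line. Slc4a1 read 244.8 to 327.7, the sodium-proton exchanger Slc9a8 read 485.7 to 672.0 and Slc26a8 read 321.5 to 489.9.

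Calcium and phosphate carriers were 10 probe sets, 5 higher and 5 lower; the class is plotted as calcium, phosphate and sulfate but held no sulfate carrier, and the sulfate carrier Slc26a2 is counted by its family with the chloride carriers. The sodium-calcium exchanger Slc8a1 read 3640, 2189, 2085, 2639 and 3584 in the order parental, clone 2, clone 16, clone 14 and clone 19, and 388.4, 340.7, 268.9, 496.6 and 449.3 in its other probe set. In both the 1-1 clones were lowest, by log2 differences of 0.52 ± 0.23 and 0.61 ± 0.26. Slc24a2, a relative of Slc24a3, read 689.0, 140.2, 356.3, 267.3 and 1261. Its clones overlapped between sets and spanned the widest range of any calcium carrier here, and the log2 set difference of 1.3 ± 0.71 had a limma adjusted p of 0.466. The phosphate carrier Slc20a1 read 3015, 3597, 2794, 2044 and 2486, and Slc8b1, the mitochondrial sodium-calcium exchanger, read 728.9 to 769.4 on 4 arrays and 1044 in clone 2. The sodium-calcium exchanger Slc8a2 read 204.0 to 364.0, highest in the parental line.

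Sugar and monocarboxylate carriers were 9 probe sets, 4 higher and 5 lower, apart from the main glucose and lactate carriers, which the selection leaves out. Slc50a1, a sugar carrier of the SWEET family, read 1867 in the parental line, 2649 in clone 2, 3441 in clone 16, 1479 in clone 14 and 1867 in clone 19. The 1-1 clones were the high pair, and the log2 difference was -0.85 ± 0.24 (limma adjusted p = 0.192). The insulin-responsive glucose carrier Slc2a4 read 583.9, 351.8, 470.9, 261.7 and 214.7, and its dimmer probe set read 244.3, 22.8, 106.9, 89.5 and 70.1. The parental line was highest in both, while the order of the clones differed. The intracellular carrier Slc2a8 read 286.0 to 445.5. Slc16a7, a lactate and pyruvate carrier, read 135.3, 204.1, 273.2, 290.6 and 250.8, lowest in the parental line. The fructose carrier Slc2a5 read 218.6 to 277.0 on 4 arrays and 109.5 in clone 16. Slc5a6, grouped here by its family, carries biotin and pantothenate and read 296.0 to 723.9. Slc45a4 read 315.0 to 609.2.

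Carriers of organic ions, vitamins, lipids, choline and peptides were 24 probe sets, 13 higher and 11 lower with a median of 0.01. The choline carrier Slc44a1 had 3 probe sets, higher in the 5-3 clones by log2 differences of 0.25, 0.38 and 0.6. The last of them read 1330, 1337, 1513, 1996 and 2339 in the order parental, clone 2, clone 16, clone 14 and clone 19, with the 5-3 clones highest. Slc49a4, of lysosomes, read 1416, 964.7, 1017, 1523 and 1404, and Slc37a1, of the endoplasmic reticulum, read 2142, 2196, 1344, 3362 and 2432. The peptide and histidine carrier Slc15a4, of lysosomes, went the other way from Slc15a2, with 983.7, 1051, 1536, 848.7 and 759.8 (log2 difference -0.65 ± 0.26, limma adjusted p = 0.314). Slc22a17 read 930.2, 922.3, 872.0, 547.4 and 694.4. The vitamin C carrier Slc23a2 read 321.0, 439.3, 535.0, 327.8 and 348.7 and 758.3, 1121, 1005, 838.2 and 1088 in its probe sets, both lowest in the parental line. Fatty acid carriers Slc27a1 and Slc27a4 read 326.0 to 557.6 and 1101 to 1448, and the carnitine carrier Slc22a5 read 255.0 to 447.8. The lysosomal sialic acid carrier Slc17a5, the only vesicular family member, read 413.3 to 486.3. The heme carrier Slc48a1 read 418.2 to 523.1, the riboflavin carrier Slc52a2 read 342.9 to 496.3 and Slc44a2 read 232.6 to 293.0 in the clones, below the parental line. Slc22a15 read 548.4 to 863.2 and Slc22a23 read 293.9 to 454.9.

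For 16 genes with several member probe sets, 2 or 3 each, the probe sets gave the same direction between the sets in all 16. For the clones against the parental line they gave the same direction in 11 of 16. Probe sets of a gene report the same RNA on the same arrays, so this describes the probes and adds no replicate.

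**Figure D3:**
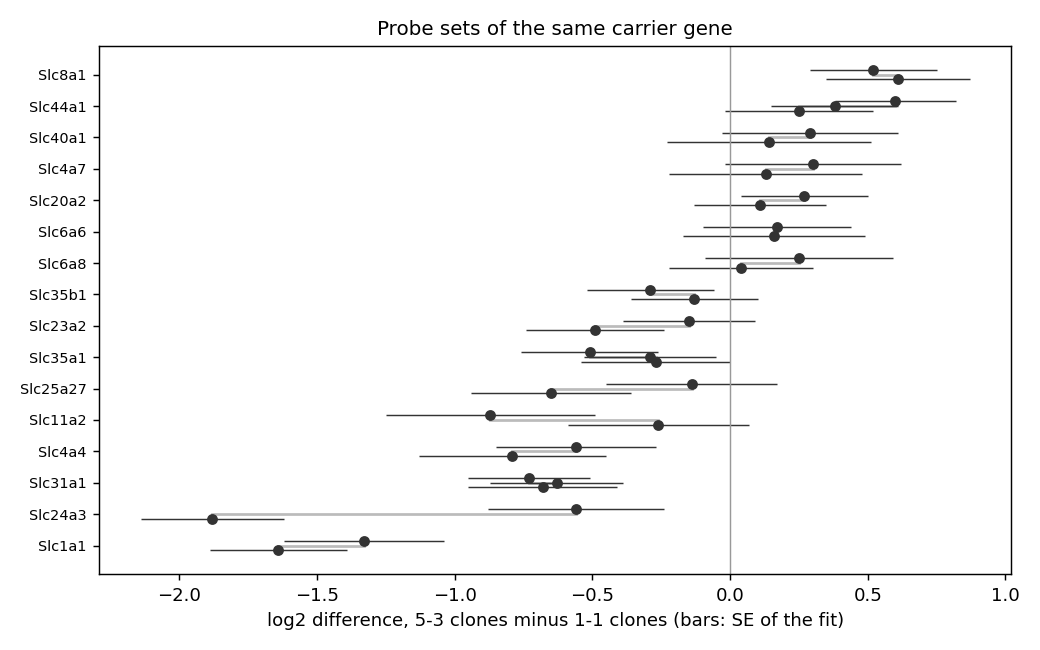
Log2 difference between the 5-3 and 1-1 clones (horizontal axis) for each probe set of the 16 genes with several, with the SE of the limma fit as bars and grey lines joining probe sets of a gene. The points of a gene lie on the same side of 0; the widest gap is that of Slc24a3, between -1.88 and -0.56.

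Against the parental line, 36 members (25.2%) were higher in all 4 clones and 27 (18.9%) were lower in all 4, where the shares over all probe sets at that level were 18.4% and 19.6%. None passed the test. limma called 0 members and 0 of the 9520 probe sets (0%), the lowest adjusted p being 1.00 for a member and 0.887 for any probe set, and 8 members (5.59%) had an unadjusted p under 0.05, against 3.67% of all. Of those 8, 3 had a higher and 5 a lower mean in the clones. Over all 143 members, 73 had a higher and 70 a lower mean in the clones, with a median log2 difference of 0.0. Over the 9520 probe sets tested, 4859 were higher and 4661 lower, with a median of 0.01. At least 2-fold beyond the parental line in all 4 clones were 0 members above (0.345% of all) and 1 below (0.699%, against 0.491%).

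That member was Slc26a2, a sulfate carrier needed for sulfated matrix, which read 671.7 in the parental line, 237.1 in clone 2, 261.6 in clone 16, 202.3 in clone 14 and 216.5 in clone 19. The clones averaged 229 ± 25.8 (SD, n = 4). Slc38a5, with the signals given above, averaged 176 ± 43.2 against 431.5, a log2 difference of -1.22 ± 0.39. The sodium-coupled neutral amino acid carrier Slc38a2, which cells raise when amino acids run short, read 6077 in the parental line, 4217 in clone 2, 3474 in clone 16, 3605 in clone 14 and 3662 in clone 19. All 4 clones were below the parental line, by a log2 difference of -0.70 ± 0.23. The amino acid, taurine and creatine class, which lacks the carriers the selection leaves out and those of other families, had 5 probe sets with a higher and 11 with a lower mean in the clones. Their median log2 difference was -0.26.

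Slc25a44, a mitochondrial carrier of branched-chain amino acids, read 1878 in the parental line and 1149, 1191, 1063 and 1227 in clone 2, clone 16, clone 14 and clone 19. The 4 clones lay close together and well below it, with a log2 difference of -0.69. Slc35f5 read 2866 against 2013, 1404, 1476 and 1560, a log2 difference of -0.83. Slc37a4, the glucose-6-phosphate carrier of the endoplasmic reticulum, read 1556 against 1211, 837.3, 888.8 and 1180, and Slc25a42, which brings coenzyme A into mitochondria, read 487.4 against 321.9, 216.6, 346.0 and 228.7.

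In the other direction, Slc12a2 averaged 3020 ± 1063 in the clones against 1227, a log2 difference of 1.22 ± 0.42. Ferroportin, Slc40a1, averaged 1054 ± 339 against 483.2, a log2 difference of 1.04 ± 0.41, and 0.51 in its other member probe set. The sodium bicarbonate cotransporter Slc4a7 read 1204 in the parental line and 1740, 1868, 1627 and 3046 in the clones, and its other probe set read 220.1 against 400.6, 340.6, 295.1 and 556.5. In both clone 19 was highest, and the log2 differences were 0.73 and 0.76. The monocarboxylate carrier Slc16a7 had a log2 difference of 0.80. Its relative Slc16a6 read 178.3 in the parental line, 217.3 in clone 2, 284.0 in clone 16, 287.7 in clone 14 and 226.5 in clone 19 (log2 difference 0.45). A dimmer probe set of Slc16a6, under the level of 200, read 88.0, 147.7, 332.6, 241.7 and 99.9. Slc66a1, which carries cationic amino acids out of lysosomes, read 170.0, 202.8, 312.9, 244.4 and 240.2 (0.49). The phosphate carrier Slc20a2 read 401.6, 554.6, 514.4, 690.5 and 611.8 in 1 probe set (0.53), but 710.6, 642.3, 576.6, 729.7 and 595.9 in the other (-0.16), so its probe sets differ in direction. Carriers of organic ions, vitamins, lipids, choline and peptides had higher means in the clones for 17 probe sets and lower for 7, with a median of 0.22. Mitochondrial carriers had 10 higher and 15 lower, with a median of -0.03 that turned to 0.01 with equal array medians.

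**Figure D4:**
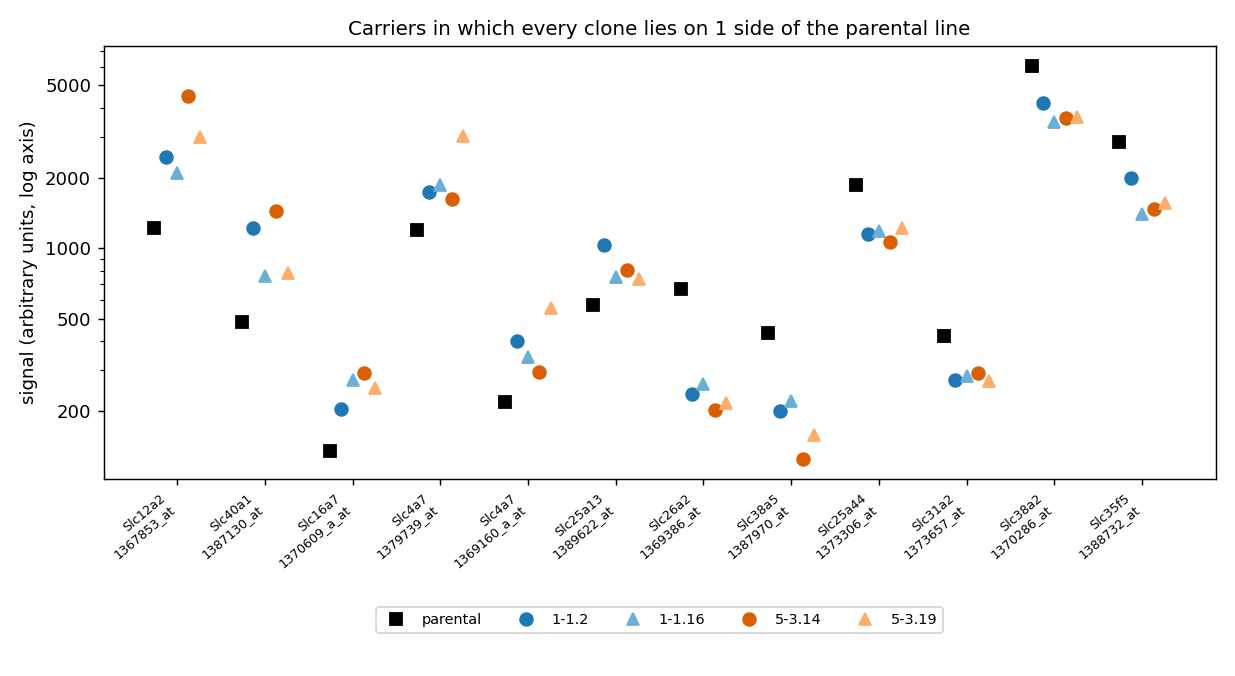
Signal (arbitrary units, log axis) of 12 probe sets with all 4 clones (coloured points) on the same side of the parental line (black square), 1 point per array. The first 6 have every clone above the parental line and the last 6 have every clone below it; none passed limma's threshold.

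All of these values are set against 1 parental array, which also differed in its added controls: poly(A) control RNA was brighter on it, from 1.27-fold for phe to 3.53-fold for lys, and hybridisation controls read 0.803 of their level in the clones. Their part in the differences was not tested, and the line and the handling of its array cannot be told apart.

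Single clones were also compared with the parental line and with each other at a 2-fold limit, without a test. Members at least 2-fold from the parental line numbered 11 in clone 2 (7.69%, against 5.86% of all probe sets at that level), 13 in clone 16 (9.09%, against 8.74%), 22 in clone 14 (15.4%, against 10%) and 12 in clone 19 (8.39%, against 6.15%). The 1-1 clones differed from each other at 3 members (2.1%, against 3.55%) and the 5-3 clones at 6 (4.2%, against 7.87%). Pairs across the sets differed at 11 to 18 members (7.69 to 12.6%, against 9.18 to 12% of all). Over the 5 arrays, 39 members (27.3%) stayed within 1.5-fold, against 35.9% of all, and 13 (9.09%) spanned more than 3-fold, against 9.49%.

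In 6 members (4.2%, against 4.76%) 1 array lay at least 2-fold beyond the other 4. Slc26a2 in the parental line was 1 of them. Clone 14 had 3: Slc44a4, a choline and thiamine pyrophosphate carrier, read 4167 there and 1156 to 1502 elsewhere, a gap of 2.78-fold; Slc19a1 was 2.12-fold above the next array; and Slc38a4 was 2.19-fold below. In clone 19 the probe set of Slc11a2 described first was 2.2-fold below the next array. In clone 16 Slc35e4, an orphan relative of the nucleotide sugar carriers, read 122.0 against 285.7 to 329.7, a gap of 2.34-fold.

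**Figure D5:**
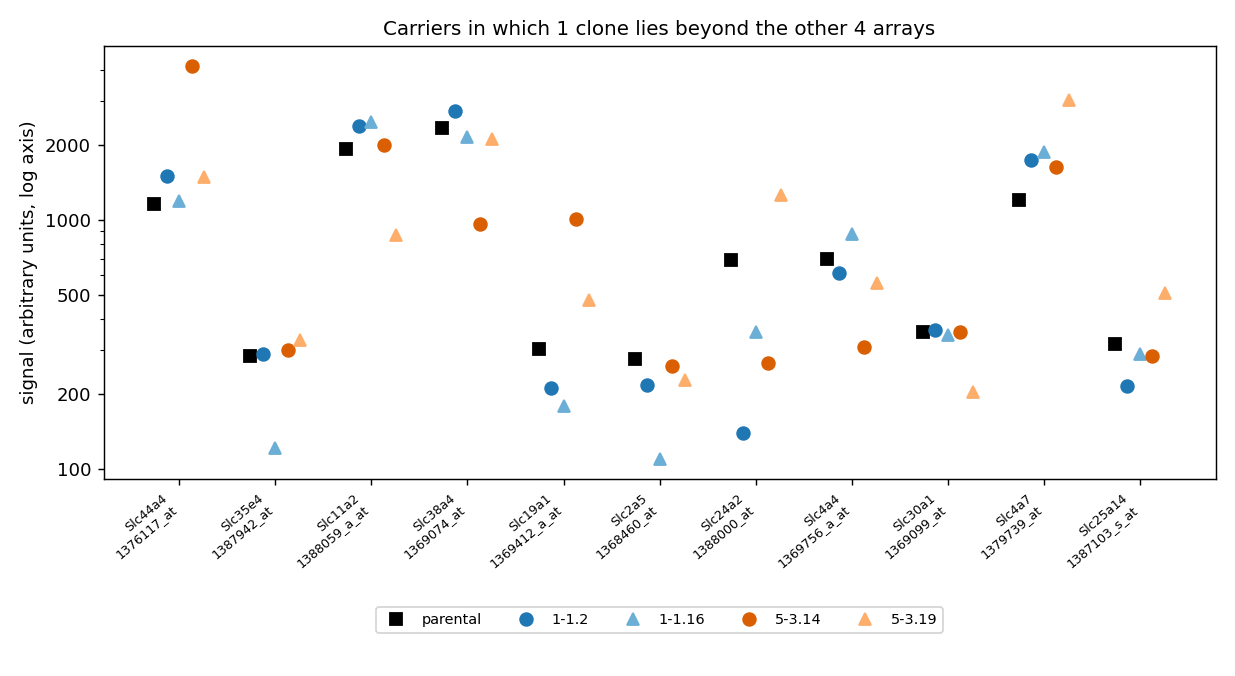
Signal (arbitrary units, log axis) of 11 probe sets in which 1 clone lay furthest beyond the other 4 arrays, 1 point per array. Slc44a4 is high in clone 14 alone, Slc38a4 is low in it alone, and Slc35e4 and Slc2a5 are low in clone 16 alone.

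Proteins that work with the carriers were read from lists of pumps, partners and regulators. Of 13 probe sets of partners and regulators tested, for 10 genes, 9 were higher and 4 lower in the 5-3 clones, and 1 was called. Over all 9520 probe sets tested, 4363 were higher and 5157 lower, and 0.420% were called. The called probe set of the list was that of Cltrn, collectrin, which helps amino acid carriers reach the cell surface. It read 6403 in the parental line, 1854 in clone 2, 2398 in clone 16, 7062 in clone 14 and 7618 in clone 19. The 1-1 clones were low against the other 3 arrays, and the log2 difference of 1.79 had an adjusted p of 0.0363 by limma. The kinase Stk39, which acts on the chloride carriers of the Slc12 family, read 1078, 674.6, 895.7, 1637 and 1322 in 1 probe set and 674.4, 441.9, 531.1, 827.2 and 700.8 in the other (log2 differences 0.9 and 0.63, adjusted p = 0.185 and 0.289). The kinase Sgk1 read 489.0, 443.3, 756.5, 172.7 and 320.3, lowest in the 5-3 clones.

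The list of genes of the amino acid response had 6 probe sets tested, for 5 genes, with 0 higher and 6 lower in the 5-3 clones. Their median log2 difference was -0.93 and limma called 0. Over all 9520 probe sets tested, 5157 were lower, the median was -0.04 and 0.420% were called. Atf4, the transcription factor of that response, read 5226 in the parental line, 6878 in clone 2, 8096 in clone 16, 4709 in clone 14 and 3699 in clone 19. The asparagine synthetase gene Asns read 5776, 5981, 6394, 4161 and 4179. In both the 5-3 clones were lowest; their log2 differences were -0.84 and -0.57, with adjusted p of 0.159 and 0.216. The pseudokinase gene Trib3 read 179.1, 355.5, 1314, 344.5 and 142.2 in 1 probe set and 147.4, 245.1, 690.7, 196.9 and 98.2 in the other. Ddit3 read 495.8, 675.3, 1896, 527.9 and 566.4. In each of these probe sets clone 16 was the single high array, and clone 2 was nearer to the 5-3 clones than to clone 16.

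Pumps that build the gradients carriers use showed no calls between the sets, against 0.420% of all probe sets tested. Of 16 probe sets of the vacuolar proton pump, 8 had a higher and 8 a lower mean in the 5-3 clones (median 0.02), and of 3 of the sodium pump, which covered only the beta subunits Atp1b1 and Atp1b3, 3 were higher (median 0.03). ABC transporters, which use ATP directly, had 9 higher and 8 lower of 17 (median 0.07), and the organic anion carriers of the Slco family had 2 higher and 1 lower of 3. No probe set of any of these lists was called between the clones and the parental line.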

How the data were processed

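Total RNA of INS-1 cells and 4 clones was hybridised to single-colour rat arrays, 1 per line. The deposited values are linear signal intensities per probe set; the authors' software, background correction and detection calls are not named in the sources used here. All arrays had the same trimmed mean (2% cut at each end), so intensities were used as deposited, without detection calls.

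Of 15923 probe sets, 57 controls were left out. A platform table gave 1 gene symbol to 12783 probe sets, several to 312 and none to 2771; 12748 matched the GRCr8 gene table, including all 143 members, and 35 kept the platform's symbol.

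The log2(signal + 21.8) values (offset: the 10th percentile) were fitted with limma 3.58.1 in R 4.3.3 (lmFit, eBayes with intensity trend) over the 9520 probe sets at or above the 40th percentile of mean level, about 194; all 143 members passed. A fit with 3 groups compared the sets (2 residual degrees of freedom). A separate fit compared the clones, as 1 group, with the parental array (3 residual degrees of freedom). The parental array is assumed to vary like the clones. p-values were adjusted by Benjamini-Hochberg over all 9520, with a threshold of 0.05. Counts of non-overlap and 2-fold gaps used the signals themselves. The number of arrays, 5, limits the precision. The tests were checked on simulated data.

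Named were members past the threshold and the 10 each way with the widest gap between sets or from the parental array. The 3 each way per array were named too. Some of these and other members are given by signals or their range, or through the counts of their class. The members, classes and lists were chosen with earlier results of these data known. Alternatives covered scaling, offset, filter, variance model, fold limit and leaving out each clone.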

Additional observations from a re-analysis of the deposited data

Results flagged for a closer look

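In 9 of 143 probe sets (6.29%) 1 clone stood far from the other 3. There the gap to the nearest clone divided by the range of the 4 exceeded Dixon's 95% critical value. Chance gives about 5% of groups, or 1 in 20, which is near this share. The share over all probe sets is not given, so the count is not read as a result about the carriers. On the high side were Slc8b1 in clone 2 (0.952), Slc25a25 in clone 16 (0.88) and Slc35f6 in clone 16 (0.893). On the low side were Slc4a1 in clone 14 (0.835), a probe set of Slc35a1 in clone 14 (0.876), Slc35e4 in clone 16 (0.868), Slc30a1 in clone 19 (0.92) and Slc39a1 in clone 19 (0.978). Slc12a5 stood high in clone 19 (0.841). Slc8b1 and Slc4a1 spanned only 1.42- and 1.31-fold over the 4 clones. Between the clone sets, Slc16a10 and Slc24a3 differed by 2.13 and -1.88 on the log2 scale, the 2 differences past limma's threshold.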

How the results depend on the processing

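The count of 2 carriers called between the sets stood at 2 or 3 under quantile normalization, a 4 times larger offset, no intensity trend and the 4 clones alone. It was 4 with equal array medians, 1 under cyclic loess and 1 with a 4 times smaller offset. It was 0 without the filter on dim probe sets and 0 with the filter at the 60th percentile, which left 78 members without Slc16a10 and Slc24a3, by limma, with 21 and 12 members at an unadjusted p under 0.05. Leaving out each clone gave 1 to 8 calls: 1 without clone 2 (Slc16a10), 1 without clone 16 (Slc15a2), 6 without clone 14 and 8 without clone 19, in fits that give the single clone left in a set the spread of the other arrays. Against the parental line limma called 0 members in every alternative, with 5 to 14 at an unadjusted p under 0.05. Members at least 2-fold apart between the sets numbered 6, and 10 at a 1.5-fold limit. Leaving out each clone, an alternative added after the data were seen, gave 7 to 10, the most without clone 19. Members with 1 array apart numbered 6, and 25 at a 1.5-fold limit, also added later. The share over all probe sets is not given for these alternatives. None of the 40 named differences that were recomputed changed sign. They were named because the clone sets, or the clones and the parental line, did not overlap, so leaving out a clone could not turn the sign. Those against the parental line had no call to lose. The only 2 differences that had passed the threshold, those of Slc16a10 and Slc24a3, each lost it in some alternatives, as given above. No paired analysis was possible because the clone numbers are names and pair no arrays. Dim signals are the least certain, since no detection calls were used.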
